A study of Homo sapiens with 18 samples.

Results

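The clustered histone genes are the genes whose symbols open with HIST1H, HIST2H, HIST3H or HIST4H, without pseudogenes. They were chosen by symbol from the deposited gene tables, and the family was singled out with its values in these same libraries already known, so its calls and fold changes are given as a description and not as independent evidence. A symbol was left out where it carried a pseudogene suffix (PS or P) or where the GENCODE 29 annotation lists the gene as a pseudogene. In all, 63 symbols were members: 6 of linker histone H1, 16 of H2A, 15 of H2B, 14 of H3 and 12 of H4. The SW480-LM3 and SW480-P table held 33 of them among 15543 listed genes, that of LX-2 held 63 rows among 31585 and that of LV5 58 rows among 32555. One symbol, HIST2H2AA4, has a row for each of 2 Ensembl identifiers in both of the latter tables, and 32 symbols were listed in all 3 tables.

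The study sequenced poly(A) RNA, captured on oligo(dT) beads, from human cell lines in 18 libraries, 6 groups of 3. SW480 is a colon cancer line: SW480-P is the parental culture, and SW480-LM3 is a metastatic derivative kept after 3 rounds of selection, each started by spleen injection. The stellate cell line LX-2 came from human liver and was incubated for 48 h with extracellular vesicles that carry the basement membrane protein nidogen-1 (EV-XP-NID1-LX-2) or with control vesicles (EV-XP-LX-2). LV5-NID1 is SW480 made to overexpress NID1 and kept for 72 h in GW4869, a neutral sphingomyelinase inhibitor used to block vesicle release, and its control is LV5. The labels do not say whether LV5 received GW4869, so overexpression and inhibitor cannot be told apart in that comparison. They leave XP unexplained. Nor do they state that replicates came from separate cultures, and p-values then reflect a spread that may be only technical.

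Histones H2A, H2B, H3 and H4 form the protein core around which DNA is wrapped, and H1 binds the linker DNA between cores. The clustered genes are transcribed in S phase, when newly copied DNA has to be packaged, and lie mostly in a large cluster on chromosome 6 with smaller ones on chromosome 1. Their messengers normally end in a stem-loop, bound by the stem-loop binding protein SLBP, in place of a poly(A) tail. Several of the genes can also be read through to a downstream poly(A) site, and bead capture by poly(A) favours that form. The levels here are therefore levels of what oligo(dT) beads retained, which may be a small part of each gene's RNA.

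The stem-loop is shown first because it sets what poly(A) capture can retain. A 16-base pattern, made of GGNNC, TTTT and NAGNGCC in a row (N is any base), was searched on the sense strand of all 206694 GENCODE 29 transcripts and was found in 63 of them (0.0305%), of which 44 were member transcripts. At least 1 transcript of 31 members held it. Of the 32 other members, 27 are annotated as coding sequence alone (381 bases for HIST1H2BK, 642 for HIST1H1C), so the lack of a match there says nothing about the gene. The exceptions were HIST1H1E, HIST1H1T, HIST1H2BJ, HIST1H3E and HIST1H4C, whose annotated transcripts reach beyond the coding part. For 22 members a transcript ran on for more than 100 bases past the pattern. The 5 forms of the pattern are given in GRCh38 coordinates, with the 16 bases in capitals and 5 bases on each side.
HIST1H2AC (chr6:26124664-26124689, plus strand): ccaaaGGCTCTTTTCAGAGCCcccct
HIST1H2AG (chr6:27133510-27133535, plus strand): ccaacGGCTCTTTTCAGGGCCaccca
HIST1H2BD (chr6:26158582-26158607, plus strand): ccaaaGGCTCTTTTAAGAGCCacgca
HIST2H4A (chr1:149833027-149833052, plus strand): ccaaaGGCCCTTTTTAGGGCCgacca
HIST4H4 (chr12:14770719-14770744, minus strand): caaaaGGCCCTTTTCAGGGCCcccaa
The form in HIST1H2AC was the form of 17 members, 6 of H2A, 8 of H2B and 3 of H3. The form in HIST1H2BD was held by 5 members, 3 of H2B and 2 of H3. The H4 genes held either the form in HIST4H4 (5 members) or that in HIST2H4A (3 members), and no other class held these. Among members, the form in HIST1H2AG was found in that gene only.

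The promoters also differed by class. RefSeq windows of 250 bases before the annotated start (GRCh38.p14) matched 57 of the 63 members. Each was searched on both strands for CCAAT (the CCAAT box), TATAAA (the TATA box), ATTTGCAT (the octamer bound by OCT1) and AAACACA (the H1 box). CCAAT was in 84.2% of member windows against 37% of the windows of all 27305 genes, and in only 2 of 11 H4 windows. TATAAA was in 66.7% against 13% of all genes. The octamer was in 10 of 15 H2A and 9 of 13 H2B windows against 2.03% of all genes, and in none of the H1 or H4 windows. Several H2A and H2B windows overlap almost fully on opposite strands, such as those of HIST1H2AG and HIST1H2BJ. There the same site counts in both classes. AAACACA was in 6 of 6 H1 windows, in no other member window and in 5.95% of all genes. These are letter matches, not bound sites. The windows of HIST1H2BK, HIST1H2AG and HIST1H1C are printed because these genes were called in every comparison, and that of HIST4H4 because it was the exception in SW480-LM3. Capitals mark matches on either strand.
HIST1H2BK (chr6:27146859-27147108, minus strand): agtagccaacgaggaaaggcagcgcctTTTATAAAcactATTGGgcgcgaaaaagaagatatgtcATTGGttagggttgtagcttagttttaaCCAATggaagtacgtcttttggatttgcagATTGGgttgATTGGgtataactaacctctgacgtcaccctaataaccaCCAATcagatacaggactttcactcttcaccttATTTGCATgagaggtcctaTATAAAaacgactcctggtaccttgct
HIST1H2AG (chr6:27132793-27133042, plus strand): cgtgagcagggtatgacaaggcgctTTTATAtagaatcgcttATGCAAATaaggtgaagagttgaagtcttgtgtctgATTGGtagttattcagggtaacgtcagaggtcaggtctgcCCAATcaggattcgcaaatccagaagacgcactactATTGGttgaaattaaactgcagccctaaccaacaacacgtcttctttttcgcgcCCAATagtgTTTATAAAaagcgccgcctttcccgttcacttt
HIST1H1C (chr6:26056471-26056720, minus strand): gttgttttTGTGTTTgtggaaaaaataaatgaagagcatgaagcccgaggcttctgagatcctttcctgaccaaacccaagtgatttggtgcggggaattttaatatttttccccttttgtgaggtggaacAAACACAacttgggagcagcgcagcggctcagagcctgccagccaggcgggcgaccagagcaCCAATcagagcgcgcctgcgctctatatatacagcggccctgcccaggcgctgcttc
HIST4H4 (chr12:14771132-14771381, minus strand): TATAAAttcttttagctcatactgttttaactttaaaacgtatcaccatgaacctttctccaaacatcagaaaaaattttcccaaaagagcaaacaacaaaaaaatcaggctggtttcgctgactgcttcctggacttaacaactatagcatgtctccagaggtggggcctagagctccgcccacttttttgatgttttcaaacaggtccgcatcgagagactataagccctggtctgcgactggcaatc
The HIST1H2BK and HIST1H2AG windows hold the octamer, TATAAA and several CCAAT boxes. HIST1H2BD was also called in every comparison but is not printed. Its windows hold CCAAT and TATAAA but no octamer. The HIST1H1C window holds CCAAT and the H1 box. The HIST4H4 window holds only a TATAAA at its far end.

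Some members share so much sequence that the assignment of reads between them is uncertain. All 1547 bases of a HIST2H4A transcript recur in 1 of HIST2H4B, all 549 of HIST2H2AA3 in HIST2H2AA4, and the 1656-base transcripts of HIST2H3A and HIST2H3C are identical. The 250-base windows of HIST2H4A and HIST2H4B are identical at 250 of 250 bases, those of HIST2H2AA3 and HIST2H2AA4 at 249 of 249 after a shift of 1 base, and those of HIST2H3A and HIST2H3C at 246 of 246 after a shift of 4. HIST2H3A and HIST2H3C carry identical values in both TPM tables, so they are 1 measurement listed under both names. The tables give the symbol HIST2H2AA4 to ENSG00000203812, which GENCODE 29 names HIST2H2AA3. Values of such pairs are therefore also given as sums.

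The SW480-LM3 table holds a signal, which is the read number divided by 1 scaling factor per library, and 15504205 to 18965163 reads per library could be recovered from it. It is not divided by gene length, so levels are not compared between genes there. The other tables hold TPM (transcripts scaled by gene length to a fixed library total), and their depth is unknown. NID1 itself was 0.501 ± 0.129 (SD, n = 3) in SW480-P and 46.9 ± 2.21 in SW480-LM3 as signal, and 0.02 ± 0.02 in LV5 and 360 ± 16.6 TPM in LV5-NID1. In LX-2 cells, which received NID1 in vesicles, its messenger was 25.4 ± 0.5 TPM with control and 20.8 ± 2.44 TPM with NID1 vesicles (adjusted p = 0.0372). Replicates correlated across genes, which are not independent, with a mean r of 0.9638 to 0.9960, lowest for LV5-NID1 replicate 3. Some epithelial markers were present in the SW480 libraries (KRT8 signal 1850 ± 88.4 in SW480-P) although CDH1 was only 1.67 ± 0.486 in SW480-P and 0.623 ± 0.0751 TPM in LV5. Others were low in LV5: EPCAM was 5.03 ± 0.75, KRT19 2.92 ± 0.697 and CDX2 0.177 ± 0.0473 TPM. LX-2 libraries held VIM (1890 ± 80.8 TPM in EV-XP-LX-2) and COL1A1 (203 ± 4.16 TPM), while LRAT was 0.01 ± 0.0173 TPM. They also held the epithelial markers KRT18 (199 ± 5.43 TPM in EV-XP-LX-2) and KRT8 (54.8 ± 2.34 TPM). VIM was not confined to LX-2, with 590 ± 12.6 TPM in LV5.

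In SW480-LM3 the clustered histone genes were lower than in SW480-P almost throughout. Their summed signal was 460, 446 and 417 in the SW480-P libraries and 66.5, 73.1 and 73.6 in the SW480-LM3 libraries. The means, 441 ± 22.2 and 71.1 ± 3.99 (SD, n = 3 each), differ 6.2-fold, and leaving out any 1 library gave 6.01 to 6.38. These and the following folds are on the deposited signal, whose totals differ between the groups. All listed genes summed to 1102964 to 1104681 in SW480-P libraries and 899507 to 908688 in SW480-LM3 libraries. As a share of the library total the fall is therefore smaller. Summed H2B was 10.2-fold lower (238 ± 8.79 to 23.3 ± 3.63), H2A 4.66-fold (109 ± 7.32 to 23.3 ± 1.72) and H4 4.12-fold (49 ± 4.78 to 11.9 ± 1.26). H1, where HIST1H1C was the one gene listed, was 3.78-fold lower and H3 was 3-fold lower (8 ± 2.07 to 2.67 ± 0.343). Without HIST1H2BK the sum of the 32 other members was 4.31-fold lower. In every class each SW480-LM3 library lay below each SW480-P library. In these bulk libraries fewer cycling cells, less histone RNA per cell and a smaller part of it retained by the beads cannot be told apart.

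**Figure D1:**
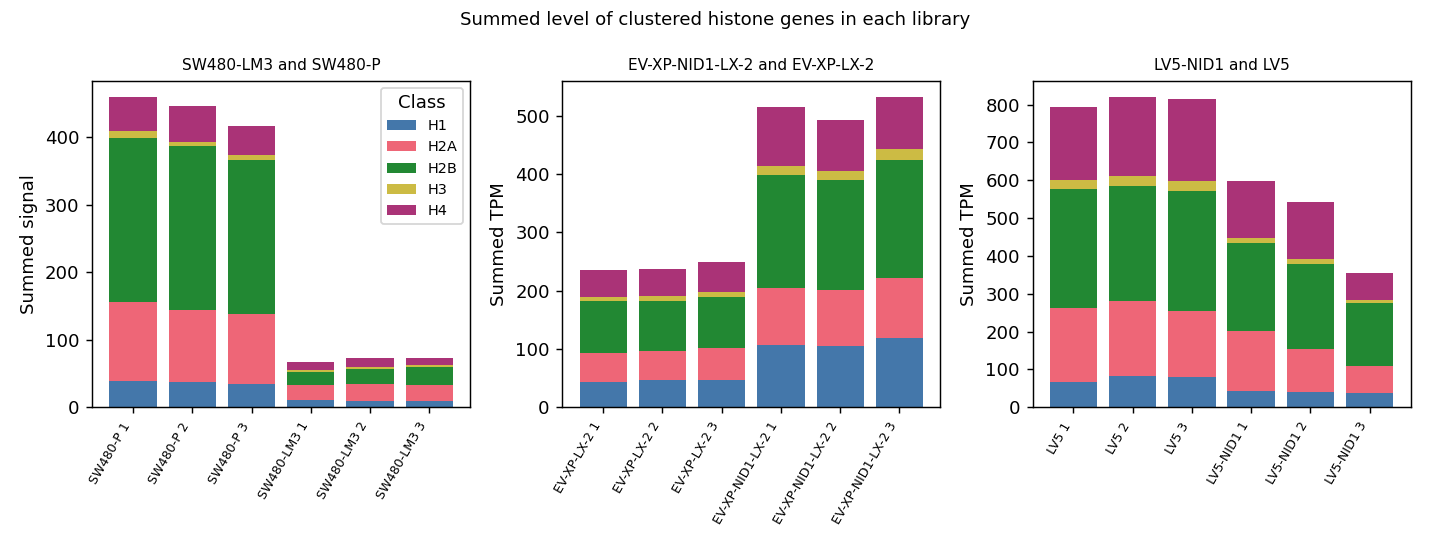
Summed level of the clustered histone genes in each library (bars), stacked by class, as signal for SW480-LM3 and SW480-P (left) and as TPM for LX-2 (middle) and LV5 (right). The SW480-LM3 bars reach 66.5 to 73.6 against 417 to 460 in SW480-P, the EV-XP-NID1-LX-2 bars 493 to 533 against 236 to 250, and the LV5-NID1 bars 354 to 597 against 794 to 822.

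Each gene was tested with limma on log2(value + 1) if it reached 1 in at least 3 of the 6 libraries, and a call needed an adjusted p under 0.05 (Benjamini-Hochberg, over all tested genes of that table). In SW480-LM3, 23 members were tested: 20 were called lower and 1 higher, where 43.9% of all tested genes were called lower and 43.9% higher. Their median log2 fold change was -1.56, against -0.00 over all tested genes. In 6 of the 20 no SW480-LM3 library reached 1: HIST1H2BJ, HIST1H2AE, HIST1H2BC, HIST1H2AM, HIST1H2BH and HIST1H2BG. These entered the test only through their SW480-P values, so they had to be lower in SW480-LM3. HIST1H2BN, HIST1H4H, HIST1H4I and HIST2H3C reached 1 in only some SW480-LM3 libraries, so they too needed their SW480-P values to be tested. Over all 33 listed members, 32 had the lower mean in SW480-LM3, and in 29 every SW480-LM3 library lay below every SW480-P library. Among the 23 tested members this held for 20, against 43.8% of all tested genes. The 10 untested members did not pass the filter, and each had the lower mean in SW480-LM3.

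HIST1H2BK, a canonical H2B gene, had the largest fall. Its signal was 186, 185 and 173 in SW480-P, from 2452 to 3179 reads, and 9.25, 11.4 and 12.1 in SW480-LM3, from 159 to 223 reads. No library of one group came near the other, and the means differed 16.7-fold (log2 fold change -3.95, SE 0.08, adjusted p = 3.22e-15). HIST1H1C, which encodes the linker histone H1.2, had 39.2, 38 and 35.2 against 11, 9.07 and 9.6 (3.78-fold lower, adjusted p = 6.33e-11). The other 7 tested H2B genes were also called lower, with log2 fold changes between -2.01 (HIST1H2BD) and -0.65 (HIST1H2BG).

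All 7 tested H2A genes were called lower. HIST2H2AA4 had 43.9, 37.5 and 37.6 in SW480-P and 3.26, 4.97 and 4.5 in SW480-LM3 (9.34-fold lower, adjusted p = 9.86e-12). Its near-identical copy HIST2H2AA3 had 5.98, 4.02 and 4.16 against 2.5, 2.98 and 2.6, a smaller difference with the groups still apart (adjusted p = 0.00157). The pair summed to 44.4 ± 4.74 against 6.94 ± 1.11, which is 6.39-fold lower. HIST1H2AG, HIST1H2AE, HIST1H2AC, HIST3H2A and HIST1H2AM had log2 fold changes between -1.97 and -1.19.

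Among H3 and H4 genes, HIST2H3C had 2.28, 2.5 and 2.26 in SW480-P and 0.698, 1.17 and 0.759 in SW480-LM3, from 12 to 43 reads (adjusted p = 7.95e-05). HIST2H3A had the same values except that SW480-P replicate 2 was at 0, and it was not called (adjusted p = 0.514). HIST2H4A had 14.5, 16.6 and 34 against 4.71, 6.03 and 4.88 (adjusted p = 3.24e-06), and HIST2H4B had 25.2, 25.5 and 0 against 1.45, 2.46 and 0.976 (adjusted p = 0.0658). The library with no HIST2H4B was the one with the most HIST2H4A, and the sum of the pair was steady: 39.7, 42.1 and 34 in SW480-P and 6.16, 8.48 and 5.86 in SW480-LM3, which is 5.65-fold lower.

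HIST4H4, which lies alone on chromosome 12, was the one member with a higher mean in SW480-LM3. Its signal was 1.42, 1.51 and 1.34 in SW480-P and 2.21, 1.93 and 2.01 in SW480-LM3, from 19 to 38 reads. The groups did not overlap and the difference was small (1.44-fold, log2 fold change 0.33, SE 0.13, adjusted p = 0.0329). The call was lost with edgeR on the recovered reads (adjusted p = 0.109), after quantile normalization (0.0548), and without SW480-P replicate 3 or any 1 of the SW480-LM3 libraries (0.0515 to 0.0926).

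**Figure D2:**
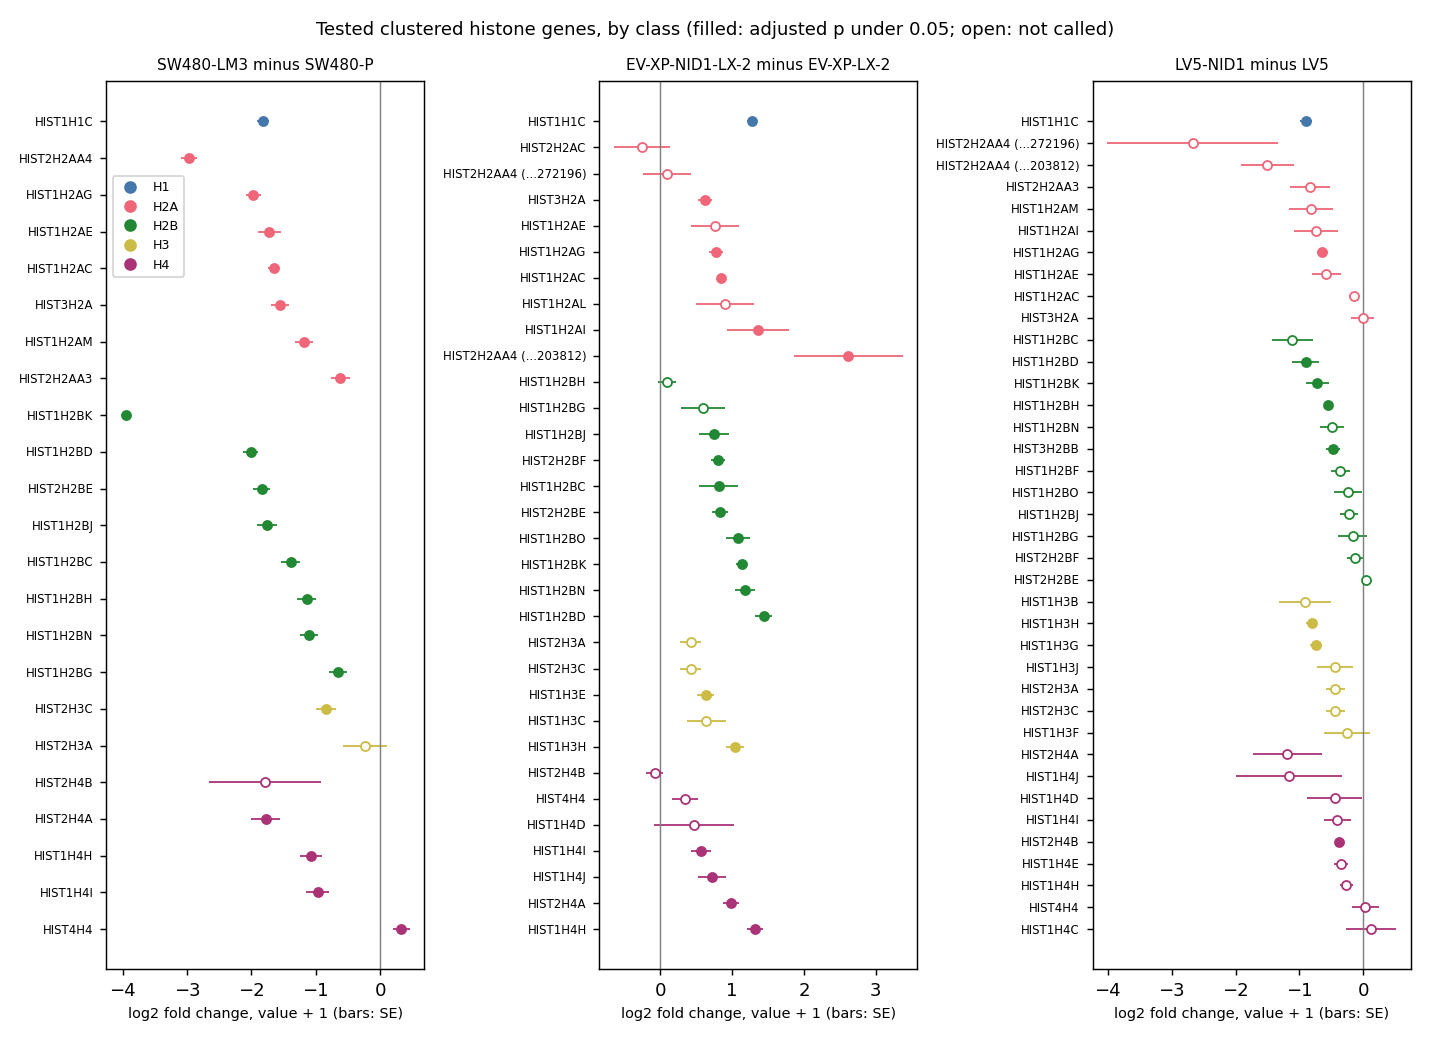
Log2 fold change on the value + 1 scale (points, horizontal axis) with its SE (bars) for every tested clustered histone gene (rows, by class), in SW480-LM3 (left), EV-XP-NID1-LX-2 (middle) and LV5-NID1 (right), each against its control. Filled points passed an adjusted p of 0.05: all but HIST4H4 lie below 0 on the left (20 genes), all 20 lie above 0 in the middle and all 9 lie below 0 on the right.

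With NID1 vesicles the same family was higher in LX-2 cells. The summed level was 236, 238 and 250 TPM under control vesicles and 514, 493 and 533 TPM under NID1 vesicles (241 ± 7.37 and 513 ± 20.1, SD, n = 3 each), a 2.13-fold difference that stayed between 2.09 and 2.17 without any 1 library. All classes were higher: H1 2.43-fold (45.4 ± 2.55 to 110 ± 7.68 TPM), H3 2.26-fold (7.28 ± 0.773 to 16.5 ± 0.936), H2B 2.22-fold (87.7 ± 2.6 to 195 ± 7.32), H2A 1.9-fold (51.9 ± 2.27 to 98.7 ± 3.45) and H4 1.89-fold (49 ± 3.2 to 92.6 ± 7.48). In each class every library with NID1 vesicles lay above every control library. The 5 highest members carried 60.6% of the summed TPM under control vesicles and 63.8% under NID1 vesicles.

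Of 32 tested rows, 20 were called higher, none lower and 12 not at all, where 17.8% of all tested genes were called higher and 24.6% lower. No member was lower at an unadjusted p under 0.05 either, and 23 were higher. The median log2 fold change was 0.77, against -0.05 over all tested genes. HIST1H2BN, HIST1H3E and HIST1H4I had no control library at 1 and entered the test only through the libraries with NID1 vesicles. Among the called rows, HIST1H2AI, HIST1H2BC, HIST1H2BO and HIST2H2AA4 (ENSG00000203812) reached 1 in only some control libraries. Over all 63 rows, 54 had the higher mean with NID1 vesicles, and the groups were apart in that direction in 31 and in the other in none. Among the 32 tested rows they were apart in that direction in 25 and in the other in none, against 23.4% and 32.5% of all tested genes. The identical rows HIST2H3A and HIST2H3C both count among the 32 and the 25. The other 31 rows never passed the filter, with values of 0 to 4.47 TPM.

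HIST1H1C and HIST1H2BK led by level. HIST1H1C was 41.6, 44.4 and 46.1 TPM under control vesicles and 105, 103 and 117 TPM with NID1 vesicles (2.46-fold higher, log2 fold change 1.28, SE 0.07, adjusted p = 1.63e-04). HIST1H2BK was 49.7, 45.5 and 52.7 TPM against 107, 106 and 115 TPM (2.21-fold higher, adjusted p = 1.63e-04). Both groups were tight and far apart. None of the 5 other H1 genes was tested, with values of 0 to 1.45 TPM, so H1.2 was nearly the whole of what was seen of the linker class.

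Among H2B genes 8 of 10 tested were called higher. On the log2(value + 1) scale HIST1H2BD had the largest rise of these, from 13.5, 15.7 and 11 TPM to 38.4, 37 and 37.2 TPM (2.81-fold, log2 fold change 1.44, SE 0.12, adjusted p = 3.00e-04). HIST1H2BN (4.85-fold) and HIST1H2BO (3.03-fold) had larger ratios of means at lower levels. HIST1H2BG (adjusted p = 0.161) and HIST1H2BH (adjusted p = 0.551) were not called. HIST1H2BH, at 1.31, 1.22 and 1.4 TPM against 1.53, 1.38 and 1.48 TPM, overlapped between the groups.

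Among H2A genes 5 of 9 tested rows were called higher. HIST1H2AC went from 16.3, 17.2 and 16.2 TPM to 29, 31 and 31.8 TPM (1.85-fold, adjusted p = 2.66e-04). HIST2H2AA4 split between its identifiers: ENSG00000203812 had 7.77, 5.97 and 0 TPM against 16.4, 27.2 and 27.6 TPM (adjusted p = 0.0283), while ENSG00000272196 had 11.1, 11.4 and 24.8 TPM against 20.1, 10.4 and 18.4 TPM (adjusted p = 0.85). HIST2H2AA3 was 0.38, 0.68 and 0.33 TPM against 1.65, 1.16 and 0.83 TPM and was not tested. The 3 rows together gave 20.8 ± 3.81 against 41.3 ± 4.86 TPM, 1.98-fold higher with the groups apart. The call on ENSG00000203812 did not hold when replicate 2 (adjusted p = 0.083) or replicate 3 (0.0733) of EV-XP-NID1-LX-2 was left out.

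H3 had 2 calls in 5 tests and H4 had 4 in 7. HIST1H3H rose from 1.77, 2.3 and 2.2 TPM to 5.38, 4.8 and 5.87 TPM (2.56-fold, adjusted p = 8.50e-04). HIST1H4H rose from 6.84, 6.99 and 7.35 TPM to 22.6, 18.6 and 16.4 TPM (2.72-fold, adjusted p = 3.77e-04). HIST2H4A was 22.4, 19.2 and 20 TPM against 46.2, 34.8 and 44.2 TPM (2.03-fold, adjusted p = 8.91e-04). Its copy HIST2H4B overlapped between the groups, at 5.36, 6.36 and 4.78 TPM against 5.56, 4.95 and 4.81 TPM (adjusted p = 0.592), and the pair summed to 26 ± 1.51 against 46.8 ± 6.29 TPM.

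In LV5-NID1 the family was lower than in LV5, by less and with more spread. The summed level was 794, 822 and 814 TPM in LV5 and 597, 543 and 354 TPM in LV5-NID1 (810 ± 14 and 498 ± 128, SD, n = 3 each), which is 1.63-fold lower. LV5-NID1 replicate 3 was the lowest of all, and without it the LV5-NID1 mean was 570 TPM, 1.42-fold lower. Summed H3 was 1.97-fold lower (24.8 ± 0.974 to 12.6 ± 3.96 TPM), H1 1.92-fold (76.8 ± 8.39 to 40 ± 1.79), H4 1.68-fold (207 ± 11.6 to 123 ± 46.5), H2A 1.66-fold (189 ± 14.8 to 114 ± 44.2) and H2B 1.5-fold (313 ± 7.05 to 208 ± 35.3). In each class every LV5-NID1 library lay below every LV5 library.

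Of 38 tested rows, 9 were called lower by limma, none higher and 29 not at all, where 9.32% of all tested genes were called lower and 7.27% higher. At an unadjusted p under 0.05, 19 were lower and none higher. The median log2 fold change was -0.47, against 0.01 over all tested genes. HIST1H2BF, HIST2H3A and HIST2H3C entered the test only through LV5. Over all 58 rows, 54 had the lower mean in LV5-NID1, and in 22 the groups were apart in that direction. Among the 38 tested rows they were apart in that direction in 19, against 21.6% of all tested genes. Here too the identical rows HIST2H3A and HIST2H3C both count among the 38 and the 19. The count of 9 fell to 5 without any 1 of the LV5 libraries or without LV5-NID1 replicate 2, and it was 12 without LV5-NID1 replicate 3.

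The 5 calls kept under every alternative setting were HIST1H1C, HIST1H2AG, HIST1H2BH, HIST1H3G and HIST1H3H. HIST1H1C was 65.7, 80.4 and 80.1 TPM in LV5 and 41.6, 39.1 and 38.3 TPM in LV5-NID1 (1.9-fold lower, log2 fold change -0.90, SE 0.09, adjusted p = 0.00374). HIST1H2AG was 14.4, 14.1 and 13.3 TPM against 9.15, 8.71 and 7.93 TPM (1.62-fold lower, adjusted p = 0.0058). HIST1H3H was 7.74, 8.33 and 7.83 TPM against 4.26, 4.48 and 3.6 TPM (1.94-fold lower, adjusted p = 0.00516). In each of these LV5-NID1 replicate 3 was the lowest, within 1 TPM of the next library.

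The other 4 calls were less firm. HIST1H2BK was 182, 162 and 172 TPM against 126, 116 and 78 TPM (1.62-fold lower, adjusted p = 0.044), and HIST1H2BD was 29.2, 29.3 and 28.4 TPM against 16.9, 19.3 and 10.3 TPM (1.87-fold lower, adjusted p = 0.0381). Both groups were apart for these genes, with LV5-NID1 replicate 3 the lowest. The HIST1H2BK call was lost without any 1 of the LV5 libraries or without LV5-NID1 replicate 2 (adjusted p 0.0936 to 0.134), and the HIST1H2BD call without any 1 library but LV5-NID1 replicate 3 (0.0518 to 0.116). HIST2H4B, at 37.9, 37 and 39.7 TPM against 29.6, 26.5 and 31.1 TPM (adjusted p = 0.0228), was likewise lost without any 1 library but LV5-NID1 replicate 3 (0.0518 to 0.0812). HIST3H2BB (log2 fold change -0.48, adjusted p = 0.0315) was lost without any 1 of the LV5 libraries or without LV5-NID1 replicate 2 (0.0757 to 0.11).

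Several members that were not called followed 1 library. HIST2H4A was 128, 143 and 145 TPM in LV5 and 93.4, 99 and 23.5 TPM in LV5-NID1 (adjusted p = 0.177), and without LV5-NID1 replicate 3 it was called lower (log2 fold change -0.52, adjusted p = 0.00604). The pair HIST2H4A and HIST2H4B summed to 166, 180 and 185 TPM against 123, 126 and 54.6 TPM. HIST2H2AA4 under ENSG00000203812 was 41.6, 39.4 and 37.5 TPM against 16, 22.6 and 6.34 TPM (adjusted p = 0.0562), and under ENSG00000272196 it was 54.5, 57.1 and 34.2 TPM against 51.2, 7.5 and 0 TPM (adjusted p = 0.215). HIST2H2AA3 was 7.55, 6.15 and 5.44 TPM against 4.65, 3.78 and 1.53 TPM (adjusted p = 0.112). In all of these LV5-NID1 replicate 3 was the lowest library. HIST1H2AC, the H2A row with the highest mean over the 6 libraries, had 42.1, 46.5 and 47.4 TPM against 42.6, 42.2 and 37.6 TPM and overlapping groups (adjusted p = 0.22).

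Across the 3 comparisons, which share no library, 27 of the 32 symbols listed in every table had a lower mean in SW480-LM3, a higher mean with NID1 vesicles and a lower mean in LV5-NID1. The exceptions were HIST2H2BE, HIST2H4B, HIST3H2A, HIST3H2BB and HIST4H4. Over all 13100 symbols listed in every table, 12% had that pattern of means. Called lower in SW480-LM3 and higher with NID1 vesicles were 13 of 20 members with 1 row and a test in both tables, against 12.2% of all such symbols. Of the 13, HIST1H2BC and HIST1H2BJ entered the SW480-LM3 test only through SW480-P. HIST1H2BN and HIST1H4I entered the LX-2 test only through the libraries with NID1 vesicles. The direction of each in that test was set by the filter. Called lower in SW480-LM3, higher with NID1 vesicles and lower in LV5-NID1 were 4 of 20 members tested in every table, against 1.06% of all such symbols. These were HIST1H1C, HIST1H2AG, HIST1H2BD and HIST1H2BK, which were picked out after their values were seen. Of these, HIST1H2AG had 12.6, 14.1 and 12.9 in SW480-P against 2.56, 2.98 and 2.33 in SW480-LM3 as signal (5.03-fold lower). It had 2.36, 2.49 and 2.67 TPM against 5.23, 4.51 and 5.2 TPM in LX-2 (1.99-fold higher). HIST1H2BD had 26.1, 27.2 and 23.6 against 4.83, 5.21 and 6.89 in the SW480-LM3 table (4.55-fold lower). The groups did not overlap for any of the 4 genes in any comparison.

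**Figure D3:**
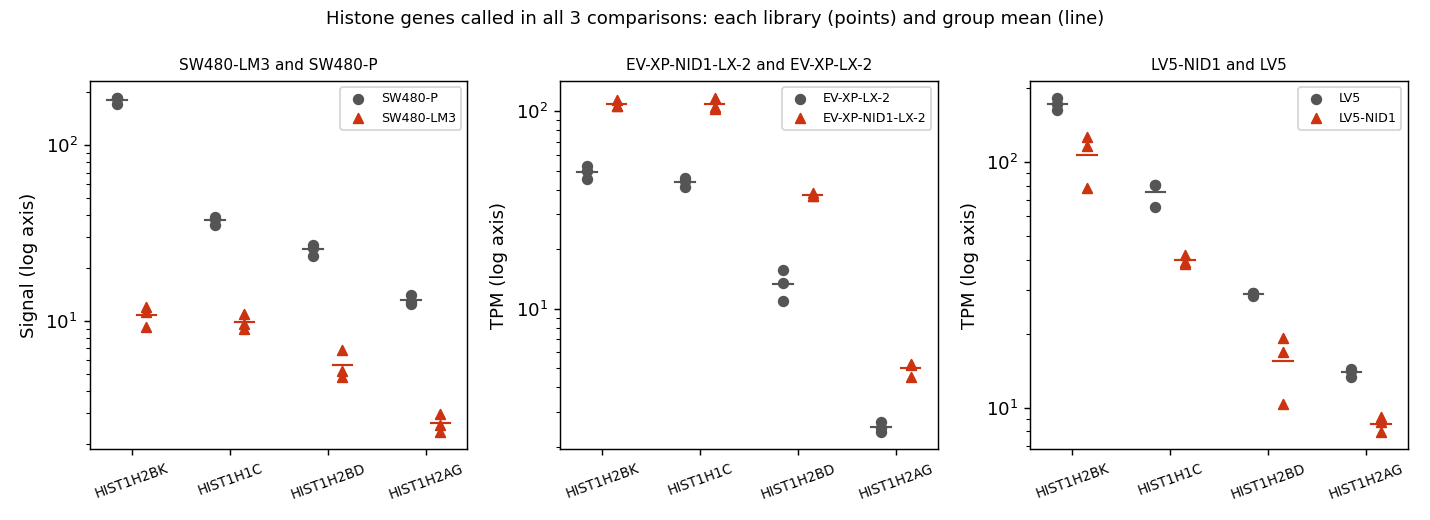
Level of the 4 histone genes called in every comparison, in each library (points) with the group mean (line), on log axes, as signal for SW480-LM3 and SW480-P (left) and as TPM for LX-2 (middle) and LV5 (right). HIST1H2BK falls 16.7-fold in SW480-LM3, rises 2.21-fold with NID1 vesicles and falls 1.62-fold in LV5-NID1.

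The histone variants outside the clusters mostly have ordinary polyadenylated messengers, though that of H2AFX can also end in a stem-loop. They did not all move with the clustered genes. In SW480-LM3, 5 of 11 tested variants were called higher and 5 lower, where 43.9% of all tested genes were called higher and 43.9% lower. H2AFZ (H2A.Z) went from a signal of 941 ± 17.2 to 237 ± 5.15 and CENPA, the centromeric H3, from 50.5 ± 1.88 to 33.8 ± 2.38. H1F0, a linker variant of resting cells, went from 121 ± 3.66 to 679 ± 18.6 and H1FX from 88.1 ± 4.58 to 240 ± 6.12. The summed signal of the variants was 3100 to 3140 in SW480-P and 3220 to 3240 in SW480-LM3, whose library totals of signal were lower. With NID1 vesicles 5 of 12 were called higher and 3 lower, where 17.8% of all tested genes were called higher and 24.6% lower. There the linker variants went the other way, H1F0 from 710 ± 12.2 to 501 ± 41.9 TPM (adjusted p = 0.00126) and H1FX from 117 ± 4.57 to 80.8 ± 10.8 TPM, and H2AFZ rose from 1540 ± 5.13 to 2440 ± 313 TPM. In LV5-NID1 only H1F0 was called, lower, from 198 ± 3.61 to 170 ± 5.05 TPM (adjusted p = 0.0254). H2AFX was 33.6, 23.6 and 6.41 TPM in LV5-NID1 against 35.5 to 39.9 in LV5, and H2AFJ 56.8, 35.2 and 10.3 TPM against 67.6 to 84.1, again lowest in replicate 3 and not called.

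Genes that transcribe and cut histone messengers were a list of 20, of which 19 were listed and tested in the SW480-LM3 table and 20 in the others. In SW480-LM3, 4 were called higher and 11 lower, led by NELFE (signal 181 ± 9.98 to 60 ± 0.661), a subunit of the negative elongation factor, and CPSF2 (167 ± 8.32 to 77.6 ± 1.31), a cleavage factor, while SYMPK, its scaffold, rose (38.3 ± 2.72 to 99.2 ± 4.88). With NID1 vesicles 9 were called higher and none lower by limma, among them NPAT, the coactivator of histone gene transcription (20.7 ± 0.131 to 28.3 ± 0.2 TPM), and CSTF2 (75 ± 2.88 to 102 ± 2.81 TPM). In LV5-NID1 POU2F1, which encodes OCT1, was called higher (3.77 ± 0.137 to 5.11 ± 0.395 TPM) and LSM10, a subunit of the U7 particle, lower (39.6 ± 2.38 to 30.5 ± 2.66 TPM). The shares called over all tested genes, given above, apply to this list and to every list that follows.

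S phase genes were mostly higher with NID1 vesicles and mixed elsewhere. Of 26, all tested, 15 were called higher and 3 lower with NID1 vesicles, such as PCNA (701 ± 5.97 to 1070 ± 77.1 TPM) and CCNE2, cyclin E2 (38.2 ± 1.38 to 55.5 ± 0.451 TPM). In SW480-LM3, 9 were called higher and 14 lower, with CCNE2 going from a signal of 60.3 ± 3.83 to 16.2 ± 0.345, and in LV5-NID1 2 were called each way. Histone chaperones split evenly in each comparison: 6 higher and 6 lower of 13 in SW480-LM3, 3 and 3 with NID1 vesicles, 1 and 1 in LV5-NID1. The background shares given above apply to these counts too. The part of cell cycle phase in the histone values was not tested.

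RNAs that normally have no poly(A) tail were taken as a measure of tail-less RNA carried over by the beads. The list sought RN7SL1, RN7SL2, RN7SK, RMRP, RPPH1, TERC and the small nucleolar and Cajal body RNAs. Of these, 9 rows were listed for SW480-LM3, 20 for LX-2 and 21 for LV5, so the set differed between comparisons. RPPH1 was listed in none, RN7SL1 only for SW480-LM3 and TERC only for LV5. In the SW480-LM3 table its summed signal was 46.6, 71.6 and 47.4 in SW480-P and 14.4, 21.9 and 18.1 in SW480-LM3, with 6 of 7 tested called lower and none higher. RN7SK, for example, had 3.7, 11.1 and 7.54 against 0.349, 1.93 and 1.03. These RNAs were lower in the same libraries as the histones, and their part in the fall of the histones was not tested.

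In LX-2 and LV5 the sums of tail-less RNAs did not separate the groups as the histone sums did. With control vesicles the tail-less RNAs summed to 180, 319 and 459 TPM and with NID1 vesicles to 203, 642 and 826 TPM. RN7SL2 alone was 84.85, 213 and 387 TPM with control and 86.55, 509 and 721 TPM with NID1 vesicles. It set most of the spread of these sums. Of 11 tested, 1 was called, RN7SK, at 13.2, 17.7 and 13.7 TPM with NID1 vesicles against 13.1, 6.28 and 6.27 TPM. In LV5 they summed to 89.7, 59.6 and 5260 TPM and in LV5-NID1 to 2320, 6230 and 183 TPM. RN7SL2 made up most of each sum except those of LV5 replicates 1 and 2. RN7SK was called higher (3.35 ± 0.722 to 7.27 ± 0.656 TPM) where histones were lower. The 5260 TPM of LV5 replicate 3 was nearly all RN7SL2, at 5162.81 TPM against 26.02 and 23.29 TPM in LV5 replicates 1 and 2. The sums of tail-less RNAs in LV5 therefore differed mainly by 1 RNA. The histone sums of LV5 replicates 1 to 3 (794, 822 and 814 TPM) cannot show how carry-over of tail-less RNAs in general bears on them. LV5-NID1 replicate 3, the library with the lowest histone sum, had the lowest sum of these RNAs in its group. The median log2 fold change of the 11 tested tail-less RNAs was 0.64 with NID1 vesicles and 0.82 in LV5-NID1. The part of these RNAs in the histone values was not tested in either comparison.

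**Figure D4:**
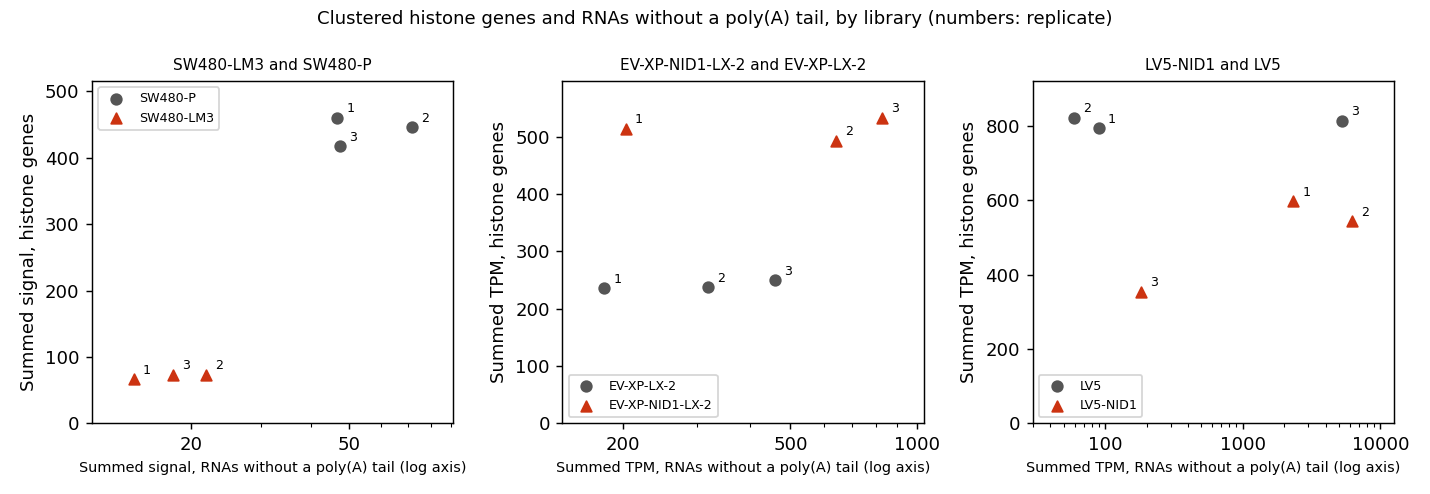
Summed level of the clustered histone genes (vertical axis) against that of RNAs without a poly(A) tail (horizontal log axis) in each library (points, numbered by replicate), as signal for SW480-LM3 and SW480-P (left) and as TPM for LX-2 (middle) and LV5 (right). Both are lower in every SW480-LM3 library than in any SW480-P library, whereas in LX-2 the tail-less sums overlap (180 to 459 and 203 to 826 TPM) while the histone sums do not. Most of the spread of the tail-less sums in LX-2 comes from RN7SL2.

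Cell type markers also differed between groups, and their part in the histone values was not tested. No listed marker was at 0 in every library of its table. Of 10 colon epithelium markers, 8 were listed and 6 of 7 tested were called higher in SW480-LM3, with summed signals of 3520 to 3790 in SW480-P and 13200 to 13900 in SW480-LM3. In LX-2 the summed stellate markers were 2400 to 2570 TPM with control and 1690 to 2010 TPM with NID1 vesicles, 4 of 8 tested called lower, and endothelial markers summed to at most 1.49 TPM. Endothelial markers summed to a signal of 31.3 to 33.8 in SW480-P and 1.16 to 1.23 in SW480-LM3, and to 60.8 to 65.5 TPM in LV5 and 33 to 45.1 TPM in LV5-NID1. In both comparisons only ESAM was tested, and it made up nearly all of the SW480-P sum (32.2 ± 1.39) and the LV5 sum (62.2 ± 2.37 TPM). VWF, which was not tested, had a signal of 0.228 ± 0.0967 in SW480-P and 0.989 ± 0.105 in SW480-LM3. In LV5 the epithelial markers summed to 1630 to 1670 TPM and in LV5-NID1 to 927 to 988 TPM, with 1 of 4 tested called higher and 3 lower. Leukocyte markers summed to at most 6.04 TPM there, and to 42.8 to 46.3 against 16.1 to 21.6 TPM in LX-2, where only CD68 was tested.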

How the data were processed

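Human cell line RNA was sequenced in 6 groups of 3 libraries. Per the labels' protocols, mRNA was purified on oligo(dT) beads and primed with random hexamers. The submitters' processing notes name HISAT2 2.1.0 and Bowtie2 2.3.5 without a role, and neither the counter nor the build or annotation is named in the labels. The deposited SW480-LM3 and SW480-P table holds a signal (reads divided by 1 factor per library: 100% of values were whole reads within 0.05 read), and the other deposited tables hold TPM.

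Each table was fitted alone with limma 3.58.1 (R 4.3.3) and a variance trend on log2(value + 1), a scale that understates the change of low genes. Genes at 1 or more in at least 3 of 6 libraries were tested and p-values were adjusted over all of them (Benjamini-Hochberg). On the recovered reads edgeR 4.0.16 and DESeq2 1.42.0 were alternatives. The scripts were tested on simulated data. Signal per read was 0.05423 to 0.07119. Depth behind TPM is unknown.

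Members and lists were chosen with earlier results of these data known. Any tested member could be named. Values by library are given for the member with the largest called rise, largest called fall and highest mean of each class in each comparison, and for the copies HIST2H2AA3, HIST2H2AA4, HIST2H4A and HIST2H4B. Up to 3 called genes of a list were named by smallest adjusted p, and some others after their values were seen. Sequences came from GENCODE 29, matched by gene identifier or, where that was absent, by symbol, and from RefSeq, matched by symbol.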

Additional observations from a re-analysis of the deposited data

How the results depend on the processing

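Of the 20 members called lower in SW480-LM3, all kept the call under every alternative run, as did 14 of 20 called higher with NID1 vesicles and 5 of 9 called lower in LV5-NID1. The 1 member called higher in SW480-LM3 (HIST4H4) became 0 after quantile normalization, with the replicate block, with edgeR and with DESeq2. Leaving out 1 library gave 0 to 1 called higher and 20 to 21 called lower in SW480-LM3, 15 to 20 called higher and 0 lower with NID1 vesicles, and 5 to 12 called lower and 0 higher in LV5-NID1. With the replicate block the LV5-NID1 count moved from 9 to 5. Replicate numbers were not read as pairs: deviations of same-numbered libraries correlated at -0.0474 to 0.0632, and not every library correlated best with its own number.

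Values (log2 fold changes) changed sign only in members that were not called, and the cause was not tested. In SW480-LM3, HIST2H3A became 0.212 with a pseudocount of 0.1 and ranged from -0.809 to 0.047 (0.042 without SW480-P replicate 3) as 1 library was left out. With NID1 vesicles, HIST2H4B became 0.042 after quantile normalization and ranged from -0.166 to 0.008, HIST2H2AA4 (ENSG00000272196) from -0.093 to 0.452 and HIST2H2AC from -0.560 to 0.126. In LV5-NID1, HIST3H2A became 0.048 after quantile normalization and ranged from -0.174 to 0.171, HIST1H3F from -0.501 to 0.085, HIST1H4C from -0.163 to 0.572, HIST2H2BF from -0.204 to 0.003 and HIST4H4 from -0.159 to 0.247.

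Scaling SW480-LM3 libraries to their totals moved the median of all genes to 0.2592 on the log2 scale and left the 20 lower calls. Quantile normalization moved the share of higher among all called genes in LV5-NID1 from 43.8% to 54.8% and gave 8 members called lower. Most untested members rest on few reads or on TPM of unknown depth.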
